A study of Homo sapiens with 8 samples.

Results

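The genes of plasminogen activation and of the serpins around it were followed in A375 cells, an established human metastatic melanoma line. The 9 members were SERPINB2, SERPINE2, PLAU, PLAUR, PLAT, SERPINB1, SERPINB6, SERPINB8 and SERPINB9, and they were taken by symbol from a count table of 60710 genes. They were selected on their family and on the counts of these same libraries, with the difference between TNF and NT in view, so that difference between the groups is given as a description, with no test. Cells in both groups were kept in DMEM with 10% FBS, carried no introduced allele, and were either left untreated (NT) or exposed to 50 ng/mL recombinant human TNF for 24 hours. In all, 4 independent experiments gave 4 NT and 4 TNF libraries of polyadenylated RNA, and replicates 1 to 4 are the experiment dates in the sample titles. The model is limited to 1 cell line, 1 dose and 1 time point.

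Plasminogen is a circulating zymogen that tissue plasminogen activator (tPA, the product of PLAT) and urokinase (PLAU) cleave to plasmin, a protease that dissolves fibrin and contributes to turnover of the extracellular matrix. Urokinase acts at the cell surface when bound to its receptor (PLAUR), and serpins, suicide inhibitors that trap the protease in a covalent complex, hold both activators in check. Clade B serpins are largely intracellular, and several of them inhibit proteases of leukocyte granules or of the secretory pathway.

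Total counts per library ran from 30989787 to 44373296. The 4 transcripts looked at as a check of the TNF response, NFKBIA, TNFAIP3, BIRC3 and ICAM1, all rose. Among melanocyte lineage markers, SOX10 stood at 953 to 1296 counts per 1000000 (CPM, scaled to the library) and MITF at 18.8 to 24.6 CPM over all libraries, whereas the pigment cell antigens PMEL and MLANA did not exceed 0.645 CPM. The melanocyte list held 8 genes, of which 5 were tested, 1 (S100B) fell and 0 rose. By edgeR, 1 of the 5 was higher at an unadjusted p under 0.05, and DESeq2 and limma voom gave 0 higher. The pan-leukocyte marker PTPRC had 0 to 2 counts per library, although the leukocyte list of 8 genes summed to 27.2 to 34.3 CPM in the NT and 44.9 to 77.6 CPM in the TNF libraries, mostly CD68, a lysosomal protein that many cell types express. CD68 rose and LYZ fell, although LYZ missed the threshold in most fits that left out a library. ITGAM, too low to be tested, had 0, 0, 1 and 1 counts in NT and 5, 22, 13 and 29 in TNF replicates 1 to 4. The part of these genes in the results on the members was not tested. Among 5 tested fibroblast and endothelial markers PECAM1 and DCN rose and 0 fell by edgeR. At an unadjusted p under 0.05, 1 fell, as did 1 by DESeq2 and by limma voom. Among 3 tested keratinocyte markers KRT5 rose and KRT14 fell. PECAM1 and KRT5, at most 0.449 and 0.278 CPM in NT libraries, passed the low-count filter only through their TNF libraries. They therefore had to differ. In bulk RNA, fewer cells of a type and less RNA per cell cannot be told apart.

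Promoter sequences are shown for the members whose window held a match to the AP-1 motif, a binding sequence of Jun and Fos family factors, which act downstream of TNF as does NF-kB. The windows comprised the 250 bases before each RefSeq start on GRCh38.p14; 13 windows represented 8 of the 9 members, and PLAT was not in the table. Both strands were searched for TGANTCA, and the 7 bases of a match are given in capitals. The SERPINB2 window is chr18:63887455-63887704 (plus strand), the SERPINB8 window chr18:63969831-63970080 (plus strand) and the PLAUR window chr19:43670170-43670419 (minus strand), each printed 5′ to 3′ in the direction of transcription. The RefSeq start of SERPINB2 lies within the longer span that GENCODE gives the gene.
SERPINB2: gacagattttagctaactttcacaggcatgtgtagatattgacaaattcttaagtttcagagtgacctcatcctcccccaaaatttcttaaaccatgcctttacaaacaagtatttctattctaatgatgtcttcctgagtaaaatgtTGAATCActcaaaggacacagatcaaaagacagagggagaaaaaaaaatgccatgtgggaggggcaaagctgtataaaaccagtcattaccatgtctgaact
SERPINB8: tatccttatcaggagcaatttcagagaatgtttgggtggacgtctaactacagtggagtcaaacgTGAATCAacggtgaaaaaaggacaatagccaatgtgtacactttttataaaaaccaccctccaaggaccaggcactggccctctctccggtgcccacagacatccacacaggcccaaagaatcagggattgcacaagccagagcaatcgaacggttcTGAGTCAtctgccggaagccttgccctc
PLAUR: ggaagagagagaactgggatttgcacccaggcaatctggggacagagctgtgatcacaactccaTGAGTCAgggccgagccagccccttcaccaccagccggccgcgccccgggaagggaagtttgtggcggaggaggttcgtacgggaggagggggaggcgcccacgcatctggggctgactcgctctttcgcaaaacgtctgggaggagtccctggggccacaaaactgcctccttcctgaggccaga

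The SERPINB2 match began 102 bases before the start, the 2 SERPINB8 matches 185 and 28 bases before it, and the PLAUR match 186 bases before it. The first SERPINB8 match and that of SERPINB2 read TGAATCA, whereas the second SERPINB8 match and that of PLAUR read TGAGTCA. Neither the PLAU windows nor those of SERPINE2, SERPINB1, SERPINB6 and SERPINB9 held these letters. Of 35116 windows of the same length, 6.57% held the AP-1 motif. The NF-kB consensus was present in 9.96% of windows and in none of the 13 windows of the members. A match describes letters only, and no match says nothing on the factors themselves.

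Both plasminogen activators were higher in the TNF libraries, at very different levels. PLAT (ENSG00000104368.19, chr8:42174718-42207709, minus strand, 14 exons; positions and the exons of the canonical transcript are those of GENCODE 44 on GRCh38) stood at 113, 150, 108 and 193 CPM in NT replicates 1 to 4 and at 242, 270, 214 and 326.5 CPM in the corresponding TNF libraries. Every TNF library lay above every NT library. Mean PLAT expression went from 141 ± 39.5 to 263 ± 47.9 CPM (SD, n = 4), a log2 fold change of 0.90 (SE 0.191, 95% interval 0.476 to 1.32), or 1.87-fold. On the log2 CPM scale (prior count of 2, which understates differences of low genes), the TNF library of an experiment exceeded its NT library by 0.76 to 1.10. PLAT was past the all-gene threshold in 16 of 17 other settings and not when no filter on low counts was applied.

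PLAU (ENSG00000122861.16, chr10:73909177-73917496, plus strand, 11 exons), which encodes urokinase, was barely present. It had 2, 2, 1 and 0 counts in the NT libraries and 18, 21, 25 and 16 in the TNF libraries. In CPM this was at most 0.0546 without TNF and 0.517 to 0.645 with it, so that the groups did not overlap. With 5 counts against 80, the ratio of TNF to NT was 16.6 (95% exact counting interval 6.82 to 52.5, which covers counting error only). The overlapping C10orf55 gene on the opposite strand had 0 counts in all 8 libraries. Per kilobase of exon, PLAU made up 0.416 to 0.707% of the summed activator level in the TNF libraries and at most 0.0996% in the NT libraries, PLAT accounting for the rest.

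PLAUR (ENSG00000011422.12, chr19:43646095-43670547, minus strand, 7 exons), the urokinase receptor, was expressed at 34.6, 42.3, 39.6 and 52.6 CPM in the NT libraries and at 132.5, 155.5, 128.5 and 193 CPM in the TNF libraries. The lowest TNF library lay above the highest NT library, and the order of the experiments was headed by replicate 4 in both groups. The log2 fold change was 1.85 (SE 0.158, 95% interval 1.50 to 2.20), or 3.61-fold, and within experiments the difference ran from 1.70 to 1.94. A noncoding RNA gene, RN7SL368P, overlaps PLAUR on the same strand, and its counts were not looked at.

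SERPINB2 (ENSG00000197632.9, chr18:63871692-63903888, plus strand, 8 exons), encoding plasminogen activator inhibitor type 2 (PAI-2), had the widest difference of the members. Its NT libraries held 0.0427, 0.109, 0.063 and 0.444 CPM, and its TNF libraries 72.8, 163, 78.9 and 446 CPM. It was near absent in all NT libraries and abundant in all TNF libraries, with replicate 4 highest in each group. Counts summed to 22 in the NT libraries, 14 of them in replicate 4, and to 25034 in the TNF libraries. The ratio was 1180 (95% exact counting interval 779 to 1883, which covers counting error only). A protein-coding gene, ENSG00000289724, overlaps SERPINB2 on the same strand, and its counts were not looked at. The fitted log2 fold change of SERPINB2 was 10.26 (SE 1.00, 95% interval 7.97 to 12.56) in the fit that leaves out experiment date. It was 9.41 without TNF replicate 4, 11.34 without NT replicate 4 and 10.48 without both libraries of replicate 4. With experiment date as a block it was 10.18 (SE 0.106). That SE was derived from the F statistic of the test. It is smaller than the counting interval above implies, so it is not read as the precision of the fold change. Within experiments SERPINB2 differed by 9.38 to 9.95 on the log2 scale (prior count included). Its NT counts were 1.62, 4, 2 and 14, so these differences and their range depend on the prior count of 2 and on counting error. SERPINB2 and PLAU passed the filter on low counts only through their TNF libraries and so had to differ.

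SERPINE2 (ENSG00000135919.14, chr2:223975045-224039318, minus strand, 9 exons), protease nexin-1, an inhibitor of thrombin, urokinase and tPA, was the most abundant member. NT libraries stood at 2885, 2560, 2873 and 2205 CPM and TNF libraries at 2969, 1935, 2984 and 1582 CPM. The groups overlapped, and the experiments split, with replicates 1 and 3 nearly level between groups (0.04 and 0.06 on the log2 scale) and replicates 2 and 4 lower with TNF (-0.40 and -0.48). The log2 fold change was -0.15 (SE 0.196, 95% interval -0.588 to 0.284), an interval that spans a fall and a small rise. SERPINE2 was not past the threshold in any of 17 other settings.

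**Figure D1:**
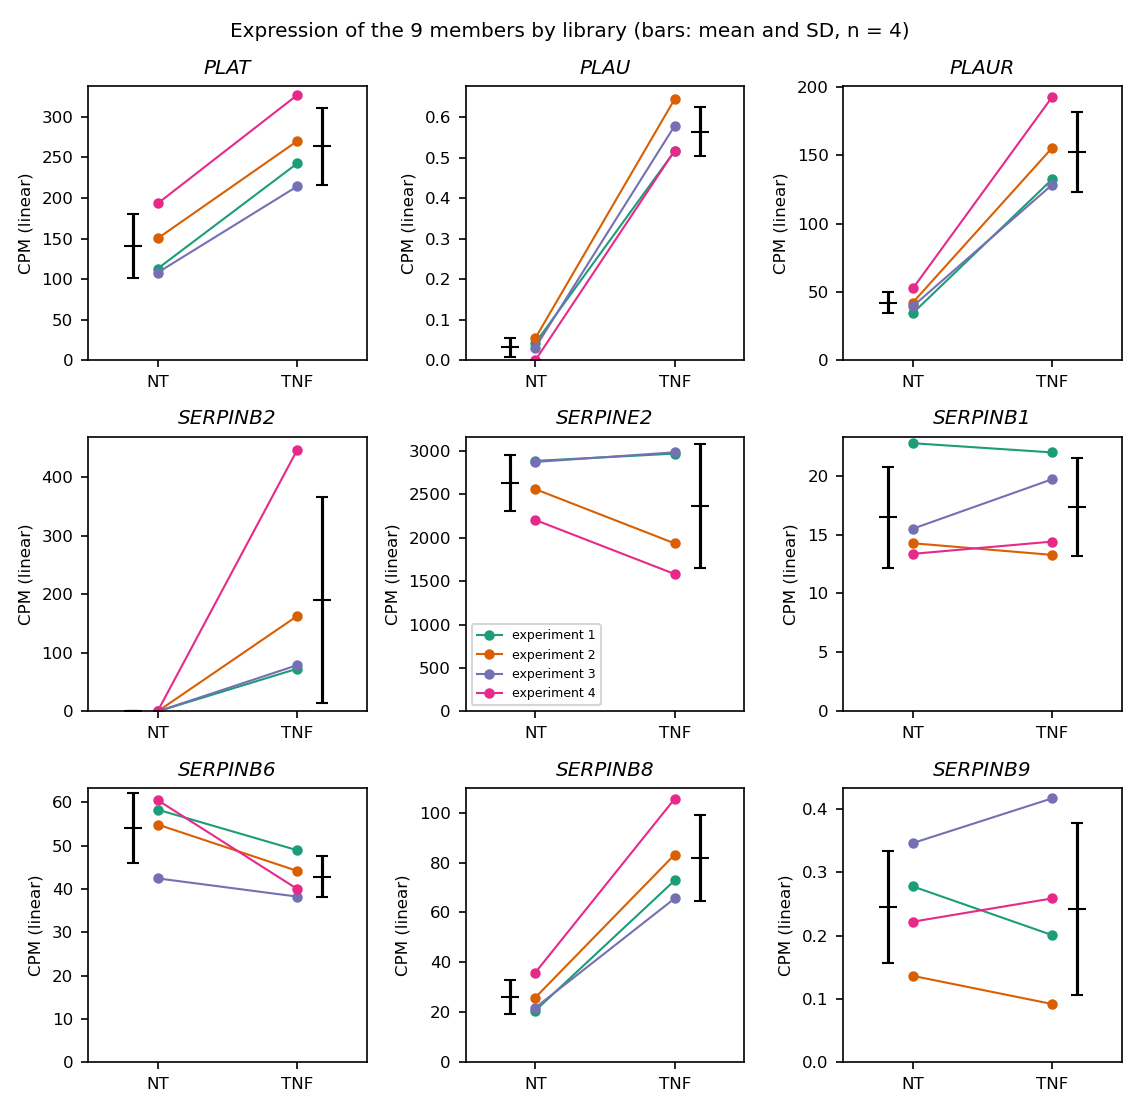
Level of each member in CPM (linear axis, from 0) in the 4 NT and 4 TNF libraries, with a line joining the libraries of an experiment and bars for the mean and SD. PLAT, PLAU, PLAUR, SERPINB2 and SERPINB8 have every TNF library above every NT library, and the SERPINB2 NT points lie near 0 because they do not exceed 0.444 CPM.

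Among the intracellular serpins, SERPINB8 was higher in the TNF libraries. SERPINB8 (ENSG00000166401.15, chr18:63970029-64019779, plus strand, 7 exons), an inhibitor of the proprotein convertase furin, stood at 20.7, 25.9, 21.9 and 35.9 CPM in the NT and 72.8, 83.2, 65.6 and 105.5 CPM in the TNF libraries. The groups did not overlap, and replicate 4 was highest in both. The log2 fold change was 1.65 (SE 0.194, 95% interval 1.22 to 2.08), or 3.14-fold. HMSD, which overlaps SERPINB8 on the same strand, had 0 to 2 counts per library. A long noncoding RNA overlaps it on the opposite strand, and whether the counting used strand is not given in the sources used here.

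SERPINB6 (ENSG00000124570.21, chr6:2948159-2972165, minus strand, 7 exons), an inhibitor of cathepsin G, was measured at 58.3, 54.9, 42.5 and 60.5 CPM in the NT libraries and at 49.0, 44.2, 38.3 and 40.0 CPM in the TNF libraries. The TNF library was the lower one in 4 of 4 experiments, but the groups overlapped through NT replicate 3. The log2 fold change was -0.34 (SE 0.119, 95% interval -0.599 to -0.071). SERPINB6 was not past the threshold over all genes; with experiment date as a block it was (log2 fold change -0.33, SE 0.073), and it passed in 7 of 17 other settings.

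SERPINB1 (ENSG00000021355.13, chr6:2832332-2841959, minus strand, 7 exons), an inhibitor of neutrophil elastase, gave 22.7, 14.3, 15.5 and 13.4 CPM in the NT and 22.0, 13.3, 19.7 and 14.4 CPM in the TNF libraries. Both groups covered the same range, with replicate 1 highest in each. The log2 fold change was 0.07 (SE 0.203, 95% interval -0.379 to 0.524). SERPINB9 (ENSG00000170542.6, chr6:2887270-2903309, minus strand, 7 exons), the inhibitor of granzyme B, had 36 counts in the NT and 36 in the TNF libraries in all, a ratio of 1.04 (95% exact counting interval 0.635 to 1.69). It was too low to be tested, at 0.137 to 0.346 CPM in the NT and 0.0921 to 0.417 CPM in the TNF libraries, and the limit of 3 counts corresponds to 0.0641 to 0.0971 CPM.

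Of the 9 members, 8 were fitted, and 5 of these were past an adjusted p of 0.05 as higher in TNF libraries, where 14.5% of the 16186 genes tested were. None was past it as lower, where 9.90% of all genes were (edgeR; 1 of 8 lower at an unadjusted p under 0.05, 1 by DESeq2, 0 by limma voom). The same 5 members had groups that did not overlap with TNF higher, as did 15.6% of all genes tested. Because this contrast chose the members, nothing is read from these counts. The median log2 fold change of all genes tested was -0.003. The balance of all genes depended on the scaling: 2344 were higher and 1603 lower with TMM, against 2045 and 2196 with upper-quartile factors and 1925 and 2514 with library totals. The same 5 members were past the threshold as higher under each of these scalings, and SERPINB6 was past it as lower with the latter pair.

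How the members varied between experiments is a separate question from the contrast that chose them, and it was tested in a fit with treatment and experiment date. Of the 8 members tested, 6 differed between dates, where 17.4% of all genes did. Replicate 4 was highest and replicate 2 next in both groups for SERPINB2, PLAT, PLAUR and SERPINB8. SERPINB2 was 2.63 log2 units higher in replicate 4 than in replicate 1 and 1.16 higher in replicate 2 (edgeR quasi-likelihood, adjusted p = 3.56e-06). It spanned 6.12-fold among the TNF libraries. In the NT libraries it had 1.62 to 14 counts, partly under the limit of 3.

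The other 3 were also higher in replicate 4 than in replicate 1, by 0.66 log2 units for SERPINB8 (adjusted p = 0.003), 0.60 for PLAT (0.00346) and 0.57 for PLAUR (0.005). SERPINE2 and SERPINB1 went the other way: relative to replicate 1, SERPINE2 stood at -0.65 in replicate 4 and -0.40 in replicate 2 (adjusted p = 0.0381), and SERPINB1 at -0.69 and -0.70 (adjusted p = 0.00967). SERPINB6 (adjusted p = 0.0726) and PLAU (0.893) did not pass. Both libraries of replicate 4 lay apart on the second principal component (17.2% of the variance), at -34.3 and -42.7, against -3.42 to 26.6 for the other 6, and the part of this in the members' differences was not tested. Without replicate 4, 4 members passed, PLAUR (0.0842), SERPINB8 (0.0573) and SERPINE2 (0.194) no longer doing so and SERPINB6 (0.0165) passing. SERPINB1 did not pass without replicate 1 (0.16), nor SERPINE2 with library totals as scaling (0.0707). In simulated counts with gene-wise dispersions the date test made more false calls than its threshold states, so calls near the threshold are less firm.

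**Figure D2:**
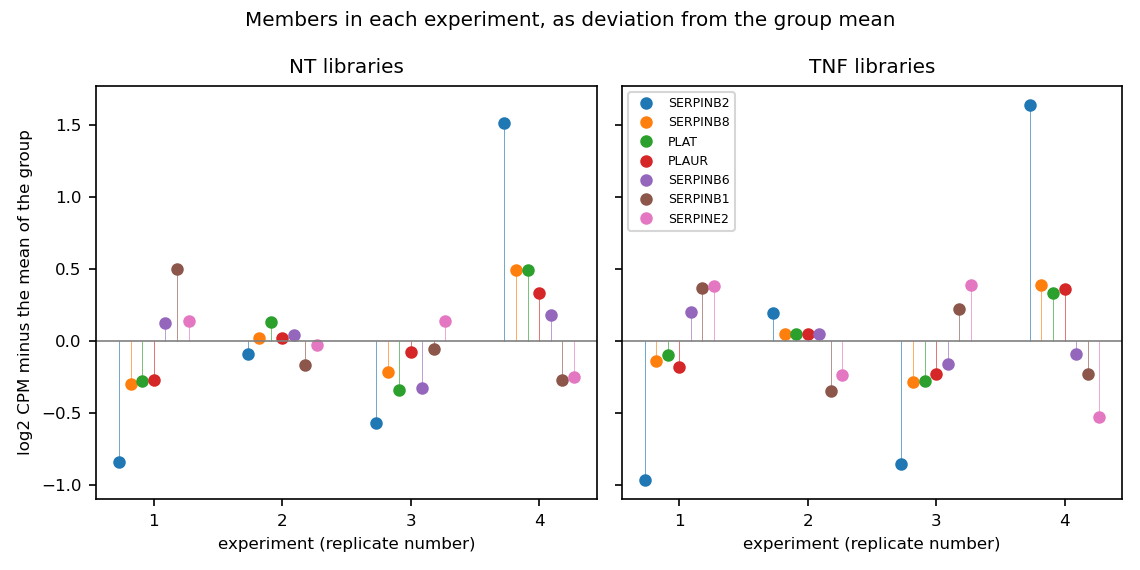
Deviation of each library's log2 CPM from the mean of its group, in log2 units, for the 7 tested members other than PLAU, by experiment (replicate number) in the NT and TNF libraries. In both groups SERPINB2, SERPINB8, PLAT and PLAUR are highest in replicate 4, where SERPINB2 deviates by 1.51 and 1.64, and SERPINE2 and SERPINB1 lie below 0 in replicates 2 and 4.

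The 5 genes with a log2 CPM profile over the 8 libraries most like that of SERPINB2 were sought among 12362 genes, those averaging a log2 CPM of 1 or more. They were CD82 and CASP4 (Pearson r = 0.999 each) and PLAUR, LRFN5 and ELL2 (0.998 each). These are correlations across 8 libraries in 2 groups that share treatment and dates, given as a description.

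Per kilobase of exon, SERPINE2 led in both groups, at 294 CPM per kb in the NT and 264 CPM per kb in the TNF libraries. In the NT libraries PLAT (18.2), PLAUR (9.48), SERPINB1 (5.40), SERPINB8 (4.53), SERPINB6 (4.09), SERPINB2 (0.0601), SERPINB9 (0.0593) and PLAU (0.0109) followed in mean CPM per kb. Neighbours whose libraries overlapped were SERPINB1 with SERPINB8, SERPINB8 with SERPINB6, and SERPINB2 with SERPINB9. With TNF, SERPINB2 came to the second place (69.4 CPM per kb), and PLAUR (34.2), PLAT (33.9) and SERPINB8 (14.2) followed. SERPINB2 overlapped with PLAUR there, and PLAUR with PLAT. SERPINB1 (5.69), SERPINB6 (3.25), PLAU (0.191) and SERPINB9 (0.0585) made up the lower end. The place of SERPINB6 depended on the length used, 13.2 kb of exon or 1.315 kb of canonical transcript. With the canonical transcript it stood at 41.1 CPM per kb in the NT libraries, above PLAUR (30.9). In the TNF libraries it then stood at 32.6, above SERPINB8 (24.6).

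Set against its inhibitors, PLAT per kilobase came to 0.0434 to 0.101 times the level of SERPINE2 in the NT libraries and to 0.0827 to 0.238 times in the TNF libraries. These ranges overlapped, although within experiments the ratio was higher with TNF in 4 of 4 (0.0451 and 0.0941, 0.0676 and 0.161, 0.0434 and 0.0827, and 0.101 and 0.238). In TNF replicates 1 to 4, PLAT stood at 1.17, 0.585, 0.957 and 0.258 times the level of SERPINB2. Of the summed level of SERPINB2 and SERPINE2, the share of SERPINB2 was at most 0.0658% without TNF and 7.42, 21.6, 7.96 and 48.0% in TNF replicates 1 to 4. With the canonical transcript as length the shares in TNF libraries ran from 2.79 to 24.8%, PLAT per SERPINB2 from 0.456 to 2.07 and PLAT per SERPINE2 from 0.0522 to 0.150, and PLAUR ranked above SERPINB2 in the TNF libraries, as it did with the longest transcript. These ratios are of transcripts, and protein was not measured.

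**Figure D3:**
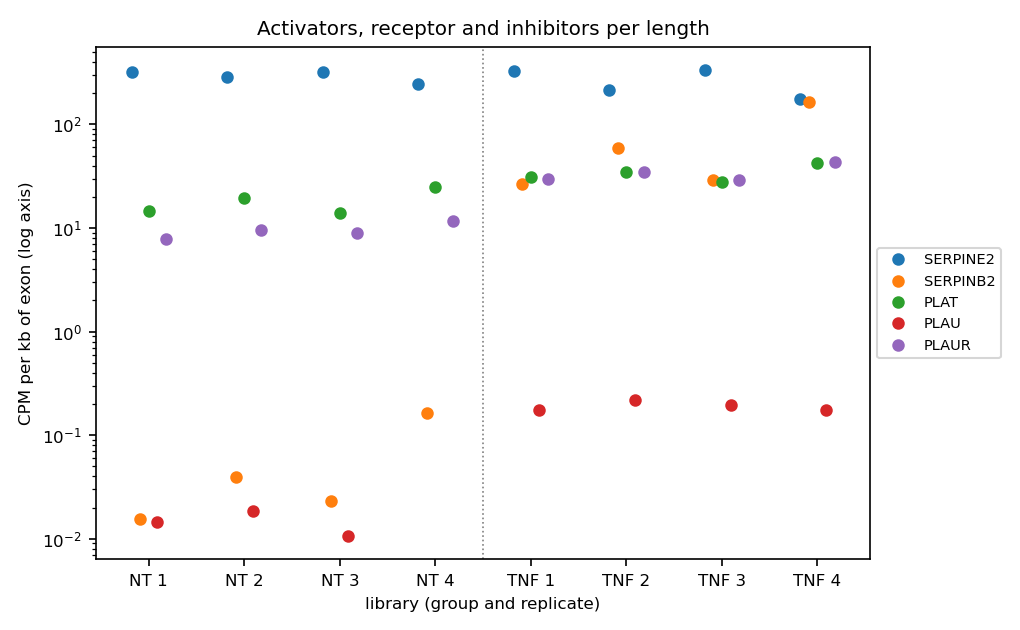
Level per length (CPM per kb of exon, log axis) of SERPINE2, SERPINB2, PLAT, PLAU and PLAUR in each of the 8 libraries, 1 point per gene and library. SERPINE2 is highest in all libraries, SERPINB2 goes from at most 0.162 CPM per kb in the NT libraries to 26.6 to 163 CPM per kb with TNF, and PLAU in NT replicate 4, at 0, is not drawn.

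Another 26 genes, of the plasmin system and of coagulation (F3 and TFPI among the latter), were tested where expressed and are called the plasmin-system list. Of 16 tested, 7 rose and 0 fell, with a median log2 fold change of 0.215 (edgeR; 1 lower at an unadjusted p under 0.05, 1 by DESeq2 and 0 by limma voom; with the date block 8 rose and 2 fell). Among all genes tested, 14.5% rose and 9.90% fell. This list and those below were drawn up with earlier results of these data known, so their counts and adjusted p-values are a description. The inhibitor TFPI2 went from 23.5 ± 5.27 to 205 ± 39.5 CPM (log2 fold change 3.13, SE 0.177, adjusted p = 1.15e-06) and TFPI, the inhibitor of tissue factor, rose by 1.56 (SE 0.278, adjusted p = 0.0021). F3, tissue factor itself, rose by 1.24 (adjusted p = 0.00607) and SERPINF2, the inhibitor of plasmin, by 1.10 (adjusted p = 0.0074). Of the surface receptors for plasminogen, PLGRKT rose by 0.81 (adjusted p = 0.000491) and ANXA2, which with S100A10 binds tPA and plasminogen, by 0.76 (adjusted p = 0.000103). VLDLR, an endocytic receptor, rose by 0.81 (adjusted p = 0.0228) but missed the threshold in 5 of the fits that left out a library. S100A10 (0.31, adjusted p = 0.0908), LRP1 (0.11) and ENO1 (-0.01) did not pass, and the substrate itself, PLG, was at most 0.0944 CPM.

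SERPINB2 and SERPINB8 lie in a cluster of 10 clade B genes on chromosome 18 that spans 543 kb. SERPINB7, in the same cluster, rose from 4.96 ± 1.78 to 17.2 ± 2.67 CPM (log2 fold change 1.80, SE 0.233, adjusted p = 0.000284). SERPINB5 (maspin), at the other end of it, gave 0.32 (adjusted p = 0.643), and SERPINB10, which lies between SERPINB2 and SERPINB8, had 0 to 6 counts per library. Of the 8 other clade B genes, 5 had 0 counts throughout, 2 were tested, 1 rose and 0 fell (edgeR; 0 lower at an unadjusted p under 0.05, by DESeq2 or by limma voom). SERPINB1, SERPINB9 and SERPINB6 form the second cluster, of 3 genes over 140 kb on chromosome 6, where none passed.

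A further list held 15 serpins of other clades, leaving out those of the plasmin-system list such as SERPINF2 and SERPINA5. Of these 15, 6 were tested, 3 rose and 1 fell, where 14.5% and 9.90% of all genes tested did. SERPINA1, the circulating elastase inhibitor, went from 3.11 ± 0.679 to 100.4 ± 36.4 CPM (log2 fold change 5.01, SE 0.302, adjusted p = 2.47e-06). SERPINA6, a corticosteroid carrier, rose by 2.97 (adjusted p = 1.36e-05) and SERPIND1, a thrombin inhibitor, by 2.50 (adjusted p = 1.98e-06). SERPINH1, a collagen chaperone, fell by 0.72 on the log2 scale (adjusted p = 0.00108). SERPINA3 gave 0.34 (adjusted p = 0.605) with libraries that overlapped. Of 15 listed proteases, among them known targets of clade B serpins, 3 were tested, and FURIN, the protease that SERPINB8 inhibits, rose by 0.61 (SE 0.086, adjusted p = 0.000457). None fell by edgeR. At an unadjusted p under 0.05, 1 was lower, as was 1 by DESeq2 and by limma voom. This was the membrane protease HPN, at -1.28 (edgeR adjusted p = 0.0558). HPN had 12, 17, 17 and 2 counts in TNF replicates 1 to 4, so it met the low-count filter through its NT libraries. CTSL gave 0.11 (edgeR adjusted p = 0.569).

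**Figure D4:**
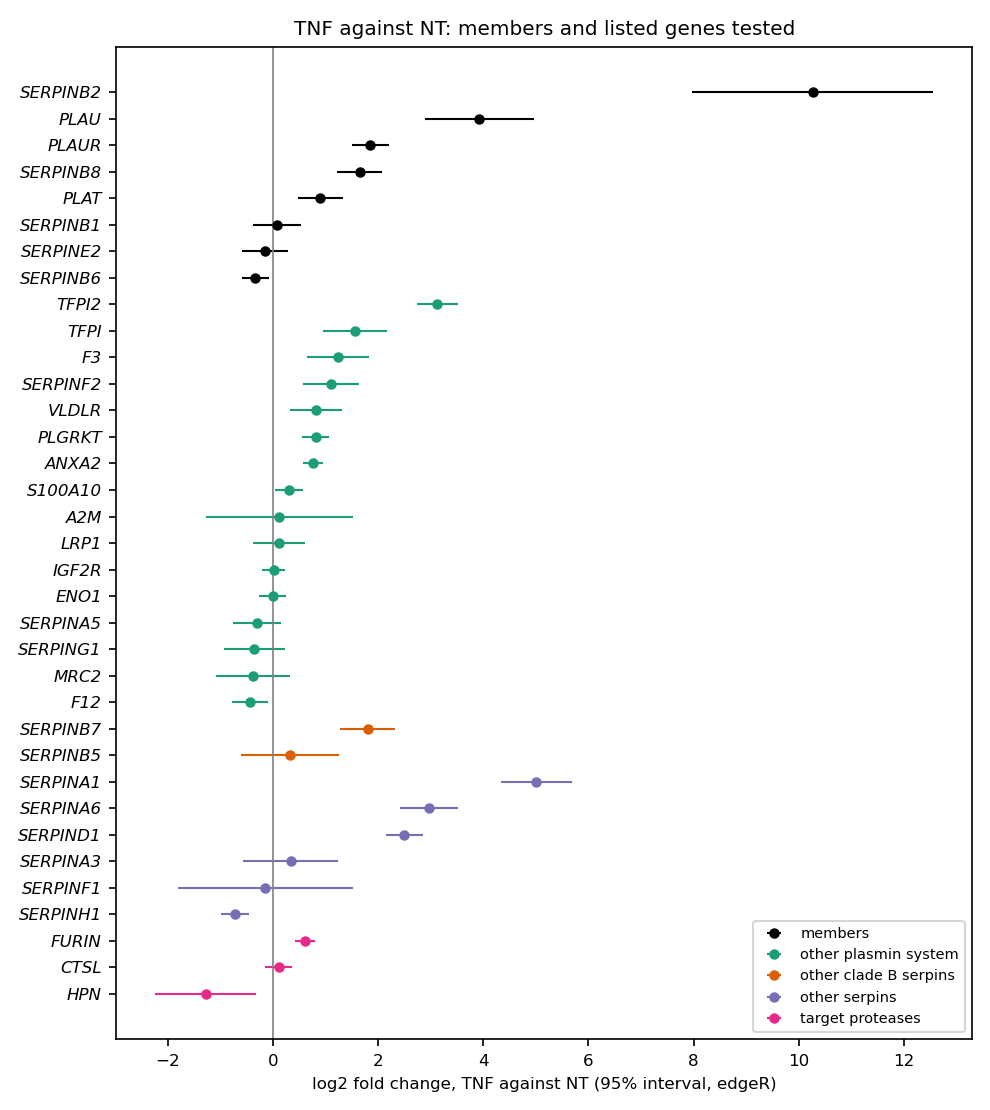
Log2 fold change (TNF against NT, edgeR, all libraries) with its 95% interval for the 8 fitted members and the tested genes of the 4 other lists, coloured by list. SERPINB2 lies at 10.26 and PLAU at 3.93, both resting on few NT counts, the intervals of SERPINE2 and SERPINB1 span 0, and SERPINA1 at 5.01 is the highest of the listed genes that are not members.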

How the data were processed

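RNA was sequenced from 4 NT and 4 TNF cultures of A375 cells. The authors extracted it with a column kit, prepared stranded polyA libraries, aligned reads to GRCh38 with bowtie2 (version not given in the sources used here) and quantified genes with RSEM 1.2.25. What the authors deposited are expected counts, without normalization. These were read from the table of the whole series, whose columns carry the titles, and rounded to whole numbers. RSEM shares reads between similar transcripts by estimate. No 2 libraries held identical values, and replicates differed by more than sampling noise (chi-square per degree of freedom at least 12).

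Genes passing the low-count filter of edgeR (minimum count 10, total 15, by group) were kept, 16186 in all. Counts were normalized by TMM and fitted with edgeR 4.0.16 in R 4.3.3 (quasi-likelihood, robust, treatment only), with Benjamini-Hochberg adjustment over all genes and a threshold of 0.05. Date was tested as 3 coefficients beside treatment, with 3 residual degrees of freedom. DESeq2 1.42.0, limma voom 3.58.1, other scalings and filters, leaving out libraries and a date block were alternatives, and the fits were tested on simulated data. Same-date libraries deviated together (correlations 0.351, 0.169, 0.238 and 0.461 over 16186 genes), each value being the highest for its libraries. For TNF replicate 3 this was narrow, as its correlation with NT replicate 1 was 0.226. The dates given in the labels were taken to pair the libraries. For the NT samples the filed single-library tables carry other dates than the titles; the series table was followed.

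CPM are counts per 1000000 of the TMM-scaled library. Per-length levels divide CPM by the union of exons in GENCODE 44, which is not the annotation release of the files. Motif windows are from RefSeq. Members and lists were chosen with earlier results of these data known. Named were all members, up to 6 genes past the threshold with the largest change per list, defining markers, and the 5 genes most like the member with the largest change. Genes given beside these (ANXA2, S100A10, LRP1, ENO1, PLG, SERPINB5, SERPINB10, SERPINA3, HPN, CTSL, HMSD and C10orf55) were named after their values were seen.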

Additional observations from a re-analysis of the deposited data

Results flagged for a closer look

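Of 64 groups of 4 libraries looked at for a library far from the others, 1 stood out, where chance flags about 1 in 20 groups. It was BIRC3, one of the transcripts used to check the TNF response: its log2 CPM in NT replicate 4 was 1.76, against 0.13 to 0.30 in the other NT libraries. No group of a member of the plasminogen activation set stood out in this way.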

How the results depend on the processing

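The members' log2 fold changes kept their direction in all settings tried for the 7 members other than SERPINB1, which ran from -0.07 to 0.27. The dates in the labels were taken to pair the libraries, and with experiment date as a block 6395 genes were past the threshold instead of 3947. SEs and intervals given for the members, unless named as blocked, are from the fit without date. With the block the SE was 0.063 for PLAT, 0.057 for PLAUR and 0.061 for SERPINB8. For PLAU it was 0.508 with the block and 0.466 without it. The fitted PLAU interval without the block, 7.45- to 31.1-fold, is narrower than its counting interval of 6.82 to 52.5. The block added SERPINB6 to the members past the threshold (6 instead of 5) and gave 10 genes of the plasmin-system list instead of 7, 8 higher and 2 lower. Counts of the other clade B and other serpins were the same. Requiring 10 counts in every library left 3 members past the threshold of 6 tested, because SERPINB2 and PLAU are then not tested. HPN made 2 of the target proteases pass instead of 1 with the date block, library totals, no filter, DESeq2, limma voom, without TNF replicate 4 and without both libraries of replicate 4; the cause was not tested. Leaving out libraries gave 5 to 6 members, 6 to 9 plasmin-system genes, 1 to 1 other clade B serpins, 4 to 4 other serpins, 1 to 2 target proteases and 2991 to 4417 of all genes, and for experiment date 4 to 6 members. Leaving out both libraries of replicate 4 in the TNF comparison, and the canonical transcript as length, were chosen after seeing the data. With the longest transcript as length 7 of 9 members had the same rank in the NT and 5 in the TNF libraries, and with the canonical one 6 and 4. The PLAU log2 fold change was 3.59 without NT replicate 4 and 3.93 with all libraries. Library totals as scaling shifted the median of all genes to -0.086. Depth limits PLAU, SERPINB9 and the NT level of SERPINB2, each at a few counts per library.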
